A study of Mus musculus with 14 samples.

Results

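The TP53INP proteins and the ATG8 proteins they bind were followed here as a family of 7 genes: Trp53inp1 and Trp53inp2, and the ATG8 genes Map1lc3a, Map1lc3b, Gabarap, Gabarapl1 and Gabarapl2. The genes were chosen by name, with earlier results of these data known. All 7 were measured, by 15 of the 45037 probe sets tested and as 7 of the 18193 genes that these probe sets name. The cells were 3T3-L1, an established mouse preadipocyte line that turns into fat cells in hormone medium. All of them carried a lentivirus. Its sequence was scrambled in the Control groups and directed against TP53INP2 in the groups labelled KD TP53INP2, called knockdown below. Cells were collected after confluence at day 0 (3 control and 3 knockdown arrays) and at day 7 of differentiation (4 and 4 arrays). Nothing in the labels says whether the replicates came from separate infections or cultures, so the p-values speak of the variation among these arrays alone, and that variation could be technical. Knockdown and control cells also differ in the virus they received, and an effect of the decrease in Trp53inp2 cannot be told apart from other effects of that virus. Trp53inp2 is the gene that the virus targets, and its decrease is a check of the labels before it is a result.

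ATG8 proteins are small ubiquitin-like proteins that are bound to the lipid phosphatidylethanolamine on the growing autophagosome, the double membrane that encloses cell contents for delivery to the lysosome. In mammals they form the LC3 and the GABARAP branches, and both branches recruit cargo receptors and parts of the autophagy machinery through a short binding motif in the partner. TP53INP2, also called DOR, carries such a motif. It shuttles between nucleus and cytoplasm, takes part in autophagosome formation, and in the nucleus acts as a coactivator of thyroid hormone receptors. TP53INP1 is a related stress protein induced by the tumour suppressor p53 that also binds ATG8 proteins. In preadipocytes, autophagy is known to take part in the change of cell shape and content during differentiation.

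The labelled cell types were checked against their markers. Of 10 measured adipocyte markers, 8 rose from day 0 to day 7 in control cells and 8 in knockdown cells, among them the adipokine gene Adipoq, whose log2 mean in controls was 4.46 ± 1.29 (SD, n = 3) at day 0 and 10.32 ± 0.91 (SD, n = 4) at day 7. Lep, the leptin gene, stayed near the bottom of the scale (group means 2.39 to 2.60). Summed over the list, adipocyte markers ranged from 14.89 to 15.37 in day 7 controls and from 15.27 to 15.74 in day 7 knockdown cells, and from 14.10 to 14.33 and 14.34 to 14.52 at day 0 (log2 of the sum). Their median knockdown difference at day 7 was 0.88, and 0 of 10 passed the limma test (5 at an unadjusted p under 0.05). Of 10 preadipocyte markers 6 fell with differentiation in each genotype. At day 7, Pdgfra and Col3a1 were lower and Gata2 and Gata3 higher in knockdown cells, and the list ranged from 14.96 to 15.25 in controls and 14.48 to 15.06 in knockdown cells. The defining macrophage genes Ptprc and Adgre1 had group means between 2.40 and 3.36, while Csf1r, the brightest of the 6 macrophage markers, averaged 8.24 and 9.14 in day 0 control and knockdown cells and 8.37 and 8.66 at day 7. The macrophage list ranged from 8.41 to 9.37 in day 0 controls, 9.20 to 9.81 in day 0 knockdown cells, 8.50 to 9.42 in day 7 controls and 8.42 to 10.10 in day 7 knockdown cells (log2 of the sum). Endothelial and osteoblast markers had group means at or under 4.78. Summed muscle markers stayed between 6.57 and 7.56, with Des, the desmin gene, higher in day 7 knockdown cells (0.61, adjusted p = 0.0440). Replicates 1 and 2 of every group resembled each other more than they resembled the rest of it. The SD of their difference over genes was 0.111 and 0.179 in day 7 control and knockdown cells, against 0.307 to 0.541 for other pairs of a day 7 group. Results that end when they are averaged are named below. At day 0 the 3' to 5' difference of the beta-actin control probe sets, a measure of RNA quality, was 3.54 ± 0.22 in controls and 2.98 ± 0.25 in knockdown cells (SD, n = 3 each), and no knockdown array reached the controls. A two-sided exact permutation test gave p = 0.1, the smallest that 3 against 3 allow, and 0.3 after adjustment over 6 such tests. That of Gapdh was lower in day 0 knockdown cells too (2.18 ± 0.22 against 1.77 ± 0.16, no overlap, exact permutation p = 0.1), while the groups overlapped for the transferrin receptor and, at day 7, for all 3 control genes. Between days, that of the transferrin receptor ran from 2.99 to 3.19 at day 0 and 4.81 to 5.46 at day 7 in controls. In knockdown cells it ran from 1.63 to 4.14 and from 5.04 to 5.86. For Gapdh the days parted in controls (2.02 to 2.43 and 1.24 to 1.79) and overlapped in knockdown cells. For beta-actin they overlapped in both genotypes. No test between days was run on these values. The part of fat cell content and of RNA quality in the results below was not tested, except where the beta-actin difference entered the fit as a covariate.

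RefSeq sequence of the 250 bases before the transcription start (assembly GRCm38.p6) was at hand for 5 of the 7 genes. Those of Trp53inp2, Map1lc3b and Gabarapl1 are shown because these genes showed the widest spans of group means in the family, and that of Gabarapl2 because its main probe set moved least. They lie on the forward strand at chr2:155381606-155381855, chr8:121590188-121590437, chr6:129532942-129533191 and chr8:111940453-111940702.
Trp53inp2: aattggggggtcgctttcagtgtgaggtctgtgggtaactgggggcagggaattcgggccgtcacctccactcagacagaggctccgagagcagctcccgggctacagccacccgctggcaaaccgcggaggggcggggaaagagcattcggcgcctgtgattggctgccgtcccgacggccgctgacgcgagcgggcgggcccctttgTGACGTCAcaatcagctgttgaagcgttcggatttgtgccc
Map1lc3b: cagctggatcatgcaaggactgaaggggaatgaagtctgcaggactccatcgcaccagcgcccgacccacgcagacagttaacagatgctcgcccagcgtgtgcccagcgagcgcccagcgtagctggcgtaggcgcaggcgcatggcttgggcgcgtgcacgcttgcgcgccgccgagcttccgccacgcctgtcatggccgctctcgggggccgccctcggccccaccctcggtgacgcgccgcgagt
Gabarapl1: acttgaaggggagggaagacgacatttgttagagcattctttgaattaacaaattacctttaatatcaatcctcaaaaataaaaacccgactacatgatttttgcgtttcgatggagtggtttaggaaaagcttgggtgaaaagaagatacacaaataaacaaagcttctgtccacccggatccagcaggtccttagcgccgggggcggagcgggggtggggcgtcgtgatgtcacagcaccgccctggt
Gabarapl2: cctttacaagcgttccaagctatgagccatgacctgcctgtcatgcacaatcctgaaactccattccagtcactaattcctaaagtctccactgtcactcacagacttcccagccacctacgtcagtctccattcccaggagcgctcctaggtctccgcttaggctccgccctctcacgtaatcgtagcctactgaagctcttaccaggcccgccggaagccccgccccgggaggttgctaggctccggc
Capitals mark TGACGTCA, the palindromic cyclic AMP response element, which occurs once in the Trp53inp2 window with its first base 41 bases before the start. It was searched after the sequences had been read, and 1.55% of 32817 RefSeq windows of this length hold it on either strand. The E-box core CACGTG, contained in the element bound by TFEB and its relatives, and the forkhead element GTAAACA were searched on both strands too. Neither was found in the 5 windows, against 6.02% and 3.16% of all windows, which says only that these letters are not there. The window of Trp53inp2 is 64.8% G and C, that of Map1lc3b 69.6%, of Gabarapl1 46.8% and of Gabarapl2 57.2%.

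Trp53inp2 was the member that differed most between knockdown and control cells at both days. Its main probe set (1452646_at, the brighter of 2) read 12.45, 12.53 and 12.38 in day 0 controls and 11.06, 11.14 and 11.66 in day 0 knockdown cells. In day 7 cells the values were 11.74, 11.77, 11.78 and 11.70 in controls and 10.20, 10.06, 10.01 and 10.45 in knockdown cells. Every knockdown array lay below every control array of its day, and the groups stood in the order day 0 control, day 7 control, day 0 knockdown, day 7 knockdown. The middle pair in that order lay close: the lowest day 7 control was 11.70 and the highest day 0 knockdown array 11.66. The knockdown difference was -1.17 ± 0.15 (SE) on the log2 scale at day 0, or 44.4% of the control level (95% confidence interval 35.5% to 55.6%, adjusted p = 0.00205). At day 7 it was -1.57 ± 0.13, or 33.7% (27.8% to 41.0%, adjusted p = 0.000111). The difference between these effects, -0.40 ± 0.20, did not pass (adjusted p = 0.421). In bulk RNA, fewer cells that make a transcript and less of it per cell cannot be told apart. The day 0 call ended when replicates 1 and 2 were averaged (-1.06, adjusted p = 0.165) and when the gene was taken as the mean of its probe sets (-0.48, adjusted p = 0.105).

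**Figure D1:**
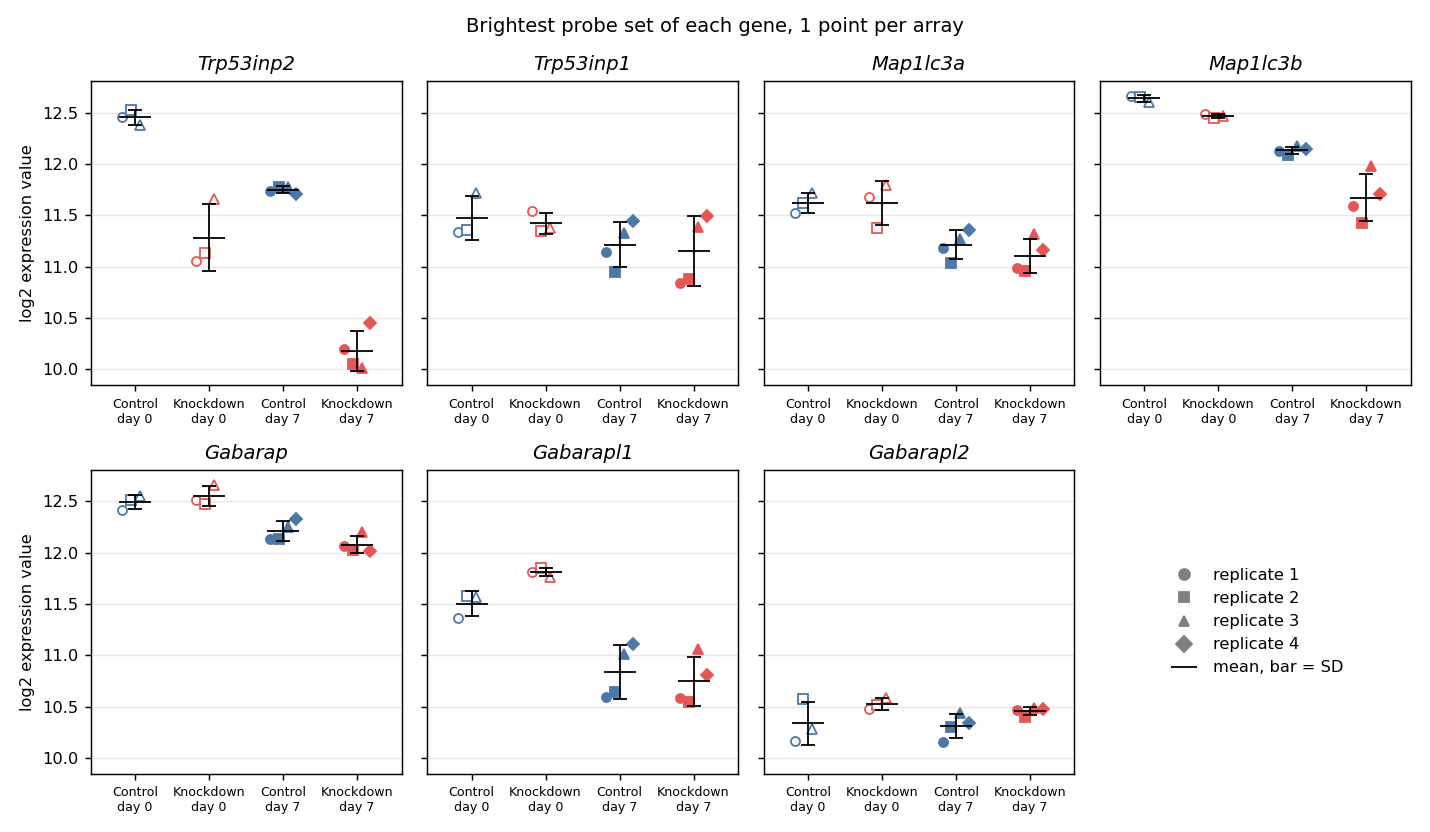
Log2 expression values (vertical axis) of the brightest probe set of each of the 7 genes, 1 point per array, by group (horizontal axis); black lines are means and bars 1 SD. The Trp53inp2 points of knockdown cells lie below those of controls at both days, and the Map1lc3b points do so by smaller margins. At day 0 Map1lc3b ran from 12.60 to 12.66 in controls and 12.44 to 12.48 in knockdown cells, a difference that did not pass. At day 7 it ran from 12.09 to 12.17 in controls and 11.42 to 11.98 in knockdown cells.

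The other probe set of Trp53inp2 (1444396_at) was dim and did not show the decrease. It read 5.07, 5.31 and 5.08 in day 0 controls and 5.31, 5.30 and 5.46 in day 0 knockdown cells, with a difference of 0.20 ± 0.22 (adjusted p = 0.728 over all probe sets). At day 7 it read 4.32, 4.46, 3.84 and 3.96 in controls and 4.89, 4.54, 4.15 and 3.96 in knockdown cells, with a difference of 0.24 ± 0.19 (adjusted p = 0.569). Both probe sets were lower at day 7 than at day 0. In control cells the main one fell by 0.71 ± 0.14 (adjusted p = 0.00304) and the dim one by 1.01 ± 0.21 (adjusted p = 0.00474 over all probe sets), so the probe sets parted in the knockdown contrast but had the same direction with time. With a mean of 4.69, the dim probe set lay below the median gene of the table (7.14 on the log2 scale).

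Trp53inp1, the p53-induced relative, did not pass in any contrast by its main probe set (1416926_at). It read 11.34, 11.36 and 11.72 in day 0 controls and 11.54, 11.35 and 11.38 in day 0 knockdown cells. The day 7 values were 11.14, 10.95, 11.33 and 11.44 in controls and 10.84, 10.88, 11.39 and 11.49 in knockdown cells. The 4 groups overlapped, and at day 7 replicates 3 and 4 read higher than replicates 1 and 2 in both genotypes. The knockdown difference was -0.05 ± 0.19 at day 0 (95% confidence interval -0.46 to 0.36, adjusted p = 0.946) and -0.06 ± 0.16 at day 7 (-0.42 to 0.29, adjusted p = 0.865), so a change within those bounds could not be seen with these arrays. The second probe set of the gene (1416927_at), dimmer at a mean of 6.16, behaved differently at day 0. It read 5.25, 5.68 and 6.12 in controls and 6.69, 6.85 and 6.53 in knockdown cells, with no overlap, and its difference of 1.01 ± 0.25 missed the threshold over all probe sets (adjusted p = 0.0512). At day 7 its groups overlapped (0.20 ± 0.22, adjusted p = 0.694).

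Among the ATG8 genes, Map1lc3b, which encodes LC3B, the form most used to mark autophagosomes, was the one that passed in a knockdown contrast. Its main probe set (1415928_a_at) read 12.66, 12.65 and 12.60 in day 0 controls and 12.48, 12.44 and 12.47 in day 0 knockdown cells. Its day 7 values were 12.13, 12.09, 12.17 and 12.15 in controls and 11.59, 11.42, 11.98 and 11.71 in knockdown cells. The groups did not overlap at either day, and the day 7 knockdown arrays spread more widely (SD 0.23) than the controls (SD 0.03). At day 7 Map1lc3b fell with knockdown by 0.46 ± 0.10 on the log2 scale, to 72.7% of the control level (62.6% to 84.4%, adjusted p = 0.0208). At day 0 the difference was -0.17 ± 0.12 (adjusted p = 0.528), and the difference between the days was -0.29 ± 0.15 (adjusted p = 0.452). The day 7 call was near the threshold. It ended without control replicate 3 or 4 or without knockdown replicate 1, 2 or 4 (adjusted p up to 0.0713, differences from -0.47 to -0.38), with replicates 1 and 2 averaged (-0.41, adjusted p = 0.203), with only the day 7 arrays in the fit (adjusted p = 0.0849) and with the mean over probe sets (-0.32, adjusted p = 0.106).

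The other probe sets of Map1lc3b split on this decrease. The dimmer 1415929_at read 8.78, 8.71, 8.87 and 8.82 in day 7 controls and 7.92, 7.98, 8.61 and 8.29 in day 7 knockdown cells, a decrease of 0.59 ± 0.14 (adjusted p = 0.0382 over all probe sets). The bright 1415930_a_at read 11.70, 11.74, 11.89 and 11.86 in controls and 11.70, 11.67, 11.78 and 11.63 in knockdown cells, with overlap and a difference of -0.10 ± 0.08 (95% confidence interval -0.27 to 0.07, adjusted p = 0.544). The interval of the latter does not reach the difference of the main probe set. Taken per array, the main minus the 1415930_a_at value was 0.34 ± 0.07 (SD, n = 4) in day 7 controls and -0.02 ± 0.20 in knockdown cells, without overlap, and the exact two-sided permutation p was 0.0286, the smallest that 4 against 4 allow, or 0.152 after adjustment over the 16 comparisons of a member's main and other probe sets. At day 0 these values were 0.31 ± 0.05 and 0.33 ± 0.07 (SD, n = 3 each, exact permutation p = 0.8). The remaining probe set (1428024_at, mean 3.89) was dim and ranged from 2.86 to 5.53 over all arrays.

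Map1lc3a, which encodes LC3A, showed no knockdown difference that passed. Its main probe set (1447883_x_at) read 11.53, 11.62 and 11.72 in day 0 controls and 11.68, 11.38 and 11.79 in day 0 knockdown cells. Day 7 cells read 11.18, 11.03, 11.27 and 11.36 in controls and 10.99, 10.96, 11.32 and 11.16 in knockdown cells. The genotypes overlapped at each day (0.00 at day 0, 95% confidence interval -0.29 to 0.28; -0.11 ± 0.11 at day 7, -0.36 to 0.14), while no day 7 array reached the lowest day 0 array of its genotype. The dimmer 1451290_at, at a mean of 8.76, was 0.22 ± 0.16 higher in knockdown cells at day 0 and 0.21 ± 0.14 higher at day 7, neither past the threshold (adjusted p = 0.562 and 0.482). The suffix x of the main probe set is the array maker's mark for probes that may also bind other transcripts.

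In the GABARAP branch 0 of 3 genes passed in a limma test of knockdown against control. Gabarap, measured by 1 probe set, read 12.41, 12.52 and 12.55 in day 0 controls and 12.52, 12.47 and 12.66 in day 0 knockdown cells. At day 7 it read 12.13, 12.14, 12.25 and 12.33 in controls and 12.07, 12.03, 12.20 and 12.02 in knockdown cells, lower in 4 of 4 same-numbered pairs but with overlap. The day 7 difference of -0.13 ± 0.08 had an interval of -0.31 to 0.04 (adjusted p = 0.349), narrower than that of any other ATG8 gene here.

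Gabarapl1, an ATG8 gene known for its regulation by forkhead factors, showed opposite signs at the 2 days without passing at either. Its main probe set (1416418_at) read 11.36, 11.58 and 11.57 in day 0 controls and 11.82, 11.85 and 11.77 in day 0 knockdown cells. The later values were 10.59, 10.64, 11.01 and 11.11 in controls and 10.58, 10.55, 11.06 and 10.81 in knockdown cells. At day 0 all 3 knockdown arrays lay above all 3 controls, and at day 7 the genotypes overlapped, with replicates 1 and 2 below replicates 3 and 4 in each. The day 0 difference was 0.31 ± 0.16 (adjusted p = 0.391), the day 7 difference -0.09 ± 0.14 (adjusted p = 0.761), and the difference between them -0.40 ± 0.21 (adjusted p = 0.456). When beta-actin quality entered the fit, the day 0 value was 0.0765 and the day 7 value -0.17 (adjusted p = 0.865 and 0.416). The second probe set (1416419_s_at) gave like values, 0.28 ± 0.14 at the first day and -0.14 ± 0.12 at the second, with adjusted p of 0.340 and 0.600. The suffix s marks probes shared by more than 1 transcript or gene.

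Gabarapl2, also called GATE-16, varied least by its main probe set (1423187_at), with group means within 0.22 of each other on the log2 scale. It read 10.17, 10.57 and 10.29 in day 0 controls and 10.48, 10.52 and 10.59 in day 0 knockdown cells. At day 7 it read 10.16, 10.31, 10.44 and 10.34 in controls and 10.47, 10.40, 10.49 and 10.48 in knockdown cells, higher in 4 of 4 same-numbered pairs but with overlap. Neither difference passed (0.19 ± 0.11, adjusted p = 0.454, and 0.15 ± 0.09, adjusted p = 0.374). The dimmer 1441376_at had the opposite sign at both days (-0.07 ± 0.15 and -0.19 ± 0.13, adjusted p = 0.873 and 0.481), so no direction is given for this gene.

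**Figure D2:**
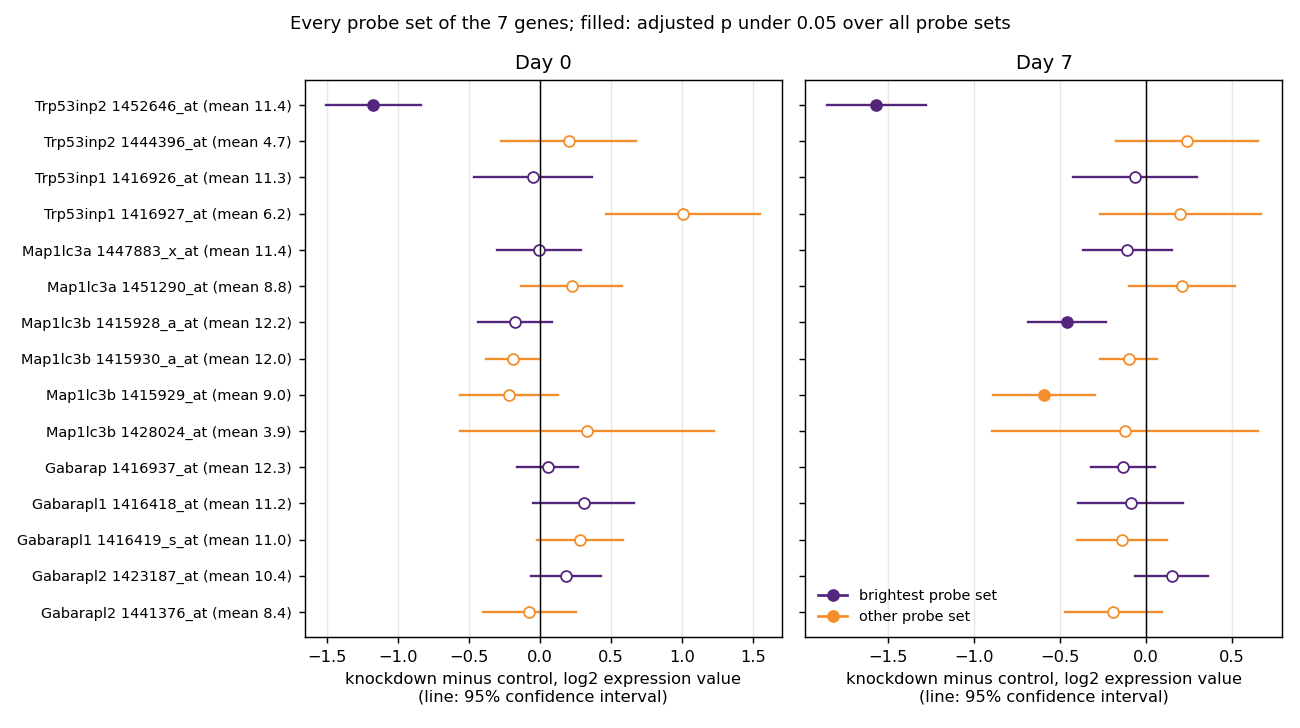
Knockdown minus control difference in log2 expression value (horizontal axis) of all 15 probe sets at day 0 and day 7, with 95% confidence intervals from the fit of all probe sets; labels give each probe set's mean over the 14 arrays. Filled points passed at an adjusted p under 0.05: 1 at day 0 and 3 at day 7, all of them lower, while the second probe set of Trp53inp2 lies near 0.2 at both days.

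Counted over the 7 main probe sets, 0 members rose and 1 fell at day 0, and 0 rose and 2 fell at day 7. Of all genes, 0.467% were called higher and 1.34% lower at day 0, and 3.01% and 3.57% at day 7. With all arrays shifted to 1 median, the calls at day 0 were 74 higher and 439 lower in place of 85 and 243. These shares moved with single arrays. With 1 array left out, the day 0 calls ran from 22 higher and 79 lower (without knockdown replicate 2) to 216 and 415 (without knockdown replicate 3), while the member count stayed at 1. Of the 547 higher and 650 lower calls at day 7, the same runs gave from 133 and 236 (without knockdown replicate 1) to 1372 and 1513 (without knockdown replicate 3). Trp53inp2 is the target of the virus, which leaves 0 of 6 untargeted members at day 0 and 1 of 6, Map1lc3b, at day 7. The median difference of the 7 genes was 0.00 at day 0 and -0.11 at day 7, beside medians of -0.05 and -0.02 over all genes. For the difference between the knockdown effects of the 2 days, 0 of 7 passed in the limma test and 0 had an unadjusted p under 0.05, where 0.0165% of all genes were called higher and 0.0055% lower. Those 3 and 1 genes became 172 and 145 without day 7 knockdown replicate 3, 144 and 74 without day 0 knockdown replicate 3, and 135 and 61 with the replicate block within each day, and 0 members passed in each. Over the 15 probe sets, 1 passed at day 0, 3 at day 7 and 0 for the difference between days (2 at an unadjusted p under 0.05). The shares of all probe sets called in either direction were 2.8%, 3.47% and 0.184%. The call among the 6 untargeted genes is a result about Map1lc3b alone and not about the family.

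More members passed in the comparisons of day 7 with day 0 than in those of knockdown with control. These comparisons share arrays, so they are given side by side. From day 0 to day 7 in control cells, 5 of 7 members fell and 0 rose, while 12.8% of all genes fell and 10.1% rose. Gabarapl1 fell by 0.67 ± 0.15 on the log2 scale (to 63.1% of the day 0 level, adjusted p = 0.00656), Map1lc3b by 0.50 ± 0.11 (to 70.5%, adjusted p = 0.00473), Map1lc3a by 0.41 ± 0.12 (to 75.4%, adjusted p = 0.0311) and Gabarap by 0.28 ± 0.09 (to 82.3%, adjusted p = 0.0322). Trp53inp2 fell to 61.3%. In these 5 genes no day 7 control array reached the lowest day 0 control array. The calls come from the same arrays, so this is no separate support for them. The share of all genes that part in this way is not given here, so it is not known whether this is unusual. Trp53inp1 (-0.26 ± 0.18, adjusted p = 0.363) and Gabarapl2 (-0.03 ± 0.10, adjusted p = 0.884) did not pass. The 7 genes had a median of -0.41, against -0.01 over all genes. With replicates 1 and 2 averaged, 0 of the 5 calls held (adjusted p from 0.0562 to 0.207, each still negative). Without control replicate 2 or 3 of day 0, or 1 or 2 of day 7, Map1lc3a and Gabarap did not pass (adjusted p from 0.0701 to 0.109), nor did Map1lc3a without replicate 1 of day 0. The Gabarap call also ended when genes were read from their most variable probe set (adjusted p = 0.0561), with every probe set tested (0.0544) and with only the compared groups in the fit (0.0704), so that 8 of 16 alternatives kept it.

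In knockdown cells the same 5 members fell with differentiation and 0 rose, where 16.8% of all genes fell and 19% rose. Trp53inp2 fell by 1.10 ± 0.14 (to 46.5%, adjusted p = 5.73e-05), Gabarapl1 by 1.06 ± 0.15 (to 47.9%, adjusted p = 0.000129) and Map1lc3b by 0.79 ± 0.11 (to 57.7%, adjusted p = 9.72e-05). Map1lc3a fell by 0.51 ± 0.12 and Gabarap by 0.47 ± 0.09 (adjusted p = 0.0055 and 0.000836). Trp53inp1 had -0.27 ± 0.18 (adjusted p = 0.277) and Gabarapl2 -0.07 ± 0.10 (adjusted p = 0.677). By the main probe sets, each of the 5 decreases was larger in knockdown than in control cells. In knockdown cells 1415930_a_at of Map1lc3b (-0.45 against -0.53) and 1444396_at of Trp53inp2 (-0.98 against -1.01) fell less. The remaining probe sets of these genes fell more. The tests of such differences between genotypes are those of the knockdown effects between days, of which 0 passed. The median was -0.51 beside 0.01 over all genes. All 5 calls held under each alternative that was run.

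**Figure D3:**
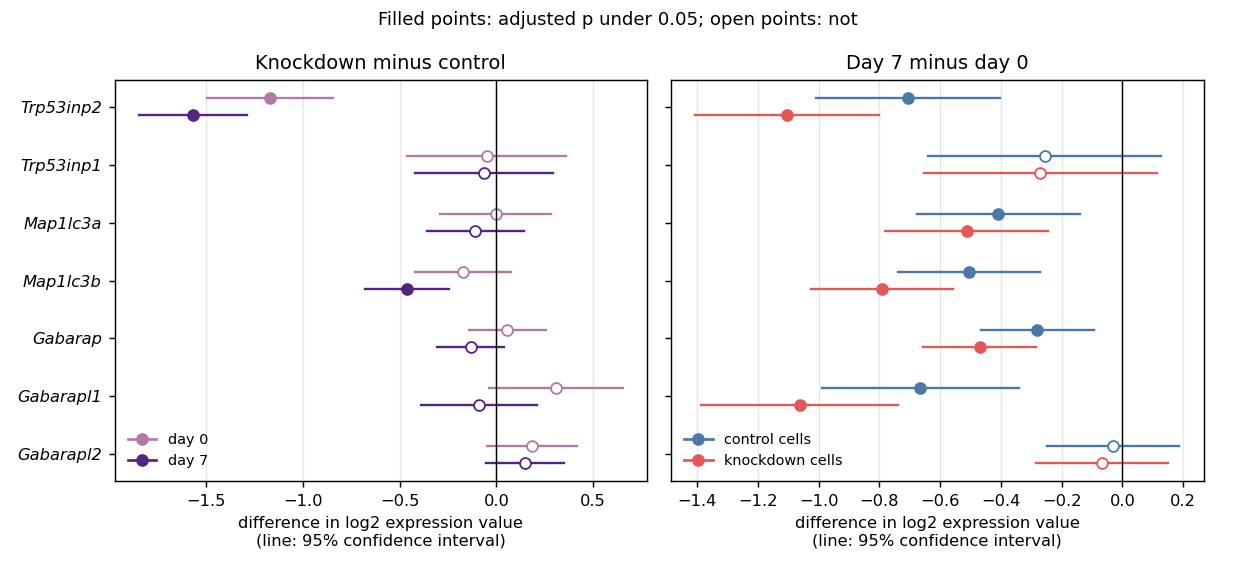
Differences in log2 expression value (horizontal axis) with 95% confidence intervals for the main probe set of each gene: knockdown minus control at day 0 and day 7 (left) and the change from day 0 to day 7 within each genotype (right). Filled points passed at an adjusted p under 0.05. In the right panel 5 genes lie below 0 in both genotypes, and Gabarapl2 lies at -0.03 and -0.07.

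Most other probe sets followed the main ones in time. Of the 15 probe sets 9 passed as lower in control cells and 12 in knockdown cells, with 0 higher, beside 17.5% and 31.3% of all probe sets called in either direction. The 3 brighter probe sets of Map1lc3b fell in control cells by 0.50, 0.53 and 0.93, both of Gabarapl1 by 0.67 and 0.62, and both of Map1lc3a by 0.41 and 0.59. Gabarapl2 and Trp53inp1 were the exceptions. For Gabarapl2 the main probe set stayed near 0. Its dimmer 1441376_at read 8.83, 8.51 and 8.77 in day 0 controls and 8.28, 8.30, 8.15 and 8.44 in day 7 controls, without overlap (-0.41 ± 0.14, adjusted p = 0.0646), and passed in knockdown cells (-0.53 ± 0.14, adjusted p = 0.0117). The probe sets of Trp53inp1 had opposite signs in control cells, one at -0.26 and the other at 0.36 ± 0.23 (adjusted p = 0.364 over all probe sets for the latter).

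The genes around the ATG8 proteins were taken as 5 lists: the conjugation enzymes, the cargo receptors, the initiation and closure machinery, known partners of the TP53INP proteins, and transcription factors of autophagy genes. Together they held 59 measured genes, and they too were chosen with earlier results of these data known. At day 0, 1 rose with knockdown and 0 fell (11 at an unadjusted p under 0.05). At day 7, 2 rose and 6 fell, which is 3.39% and 10.2% of the 59 (19 at an unadjusted p under 0.05). Over all genes, 0.467% rose and 1.34% fell at day 0 by the adjusted p, and 3.01% and 3.57% at day 7. The share of all genes under the unadjusted threshold is not given here, so the unadjusted counts have no background beside them. For the difference between days 0 passed in the limma test (9 at an unadjusted p under 0.05). The median of the 59 genes was -0.02 at day 0 and 0.08 at day 7, beside -0.05 and -0.02 over all genes.

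Of the 11 conjugation genes, whose products attach ATG8 proteins to lipid and remove them again, 0 passed at day 0 (3 at an unadjusted p under 0.05), and at day 7, 0 rose and 2 fell. Atg4b, the protease that trims ATG8 precursors and releases them from membranes, had a day 7 mean of 10.67 ± 0.08 in controls and 10.17 ± 0.24 in knockdown cells (SD, n = 4 each), and fell by 0.50 ± 0.10 (adjusted p = 0.0173). Among all probe sets tested, its dimmer ones had -0.43 ± 0.11 and -0.53 ± 0.19 (adjusted p = 0.0535 and 0.142). Atg10, the enzyme that joins ATG12 to ATG5, averaged 9.30 ± 0.10 in controls and 8.61 ± 0.29 in knockdown cells, and fell by 0.68 ± 0.15 (adjusted p = 0.0246). The list's median at day 7 was 0.09, on the other side of 0 from these 2 genes.

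Of 16 cargo receptors, 0 passed at day 0 (4 at an unadjusted p under 0.05), and at day 7, 0 rose and 1 fell. That gene was Ccpg1, a receptor for autophagy of the endoplasmic reticulum, which had a day 7 mean of 9.27 ± 0.08 in controls and 8.79 ± 0.14 in knockdown cells (-0.48 ± 0.11, adjusted p = 0.0256). Its second probe set gave -0.55 ± 0.13 (adjusted p = 0.0362 over all probe sets). At day 0 Ccpg1 had 0.34 ± 0.13 (adjusted p = 0.214), and the difference between the days was -0.82 ± 0.17 (adjusted p = 0.0873). Ccpg1 was also the cargo receptor with the largest change in differentiation, -1.36 ± 0.12 in control cells and -2.17 ± 0.12 in knockdown cells (adjusted p = 1.36e-05 and 2.64e-07).

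Of 20 initiation and closure genes, 1 rose at day 0, and 2 rose and 1 fell at day 7. Wipi2, a lipid-binding protein that brings the conjugation enzymes to the forming membrane, rose at both days by its main probe set (0.58 ± 0.13, adjusted p = 0.0355, and 0.51 ± 0.11, adjusted p = 0.0197). A second probe set had -0.15 ± 0.14 at day 0 (adjusted p = 0.656) and 0.96 ± 0.12 at day 7 (adjusted p = 0.00212), and a dimmer one 0.05 ± 0.24 and -0.01 ± 0.21, so the direction at day 0 turned with the probe set. The day 0 call also ended without any 1 of the 6 day 0 arrays (adjusted p from 0.0518 to 0.116). Uvrag, a partner of Beclin 1, rose at day 7 by 0.33 ± 0.09 (adjusted p = 0.0490), a call that 5 of 18 alternatives kept. Atg2b, a lipid transfer protein of the growing membrane, fell by 0.64 ± 0.14 (adjusted p = 0.0212), while its other probe sets gave 0.01 ± 0.13 and -0.13 ± 0.11.

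Of 8 measured partners of the TP53INP proteins, 0 passed at day 0 (0 at an unadjusted p under 0.05) and 1 fell at day 7. Thra, which encodes thyroid hormone receptor alpha, had a day 7 mean of 11.18 ± 0.08 in controls and 10.56 ± 0.22 in knockdown cells and fell by 0.61 ± 0.11 (adjusted p = 0.0081). Its dimmer probe sets gave 0.13 ± 0.14 and 0.02 ± 0.18 at day 7. Of 6 transcription factors, 0 passed at day 0 (0 at an unadjusted p under 0.05) and Foxo3, a forkhead factor of autophagy genes, fell at day 7 (-0.41 ± 0.11, adjusted p = 0.0426; 7 of 18 alternatives kept the call). Each of the 8 list calls at day 7 ended when replicates 1 and 2 were averaged, with adjusted p from 0.137 to 0.238. With replicate number as a block within each day, 4 cargo receptors and 5 initiation genes passed at day 7 in place of 1 and 3. The calls over all genes rose too, to 1371 higher and 1309 lower in place of 547 and 650.

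**Figure D4:**
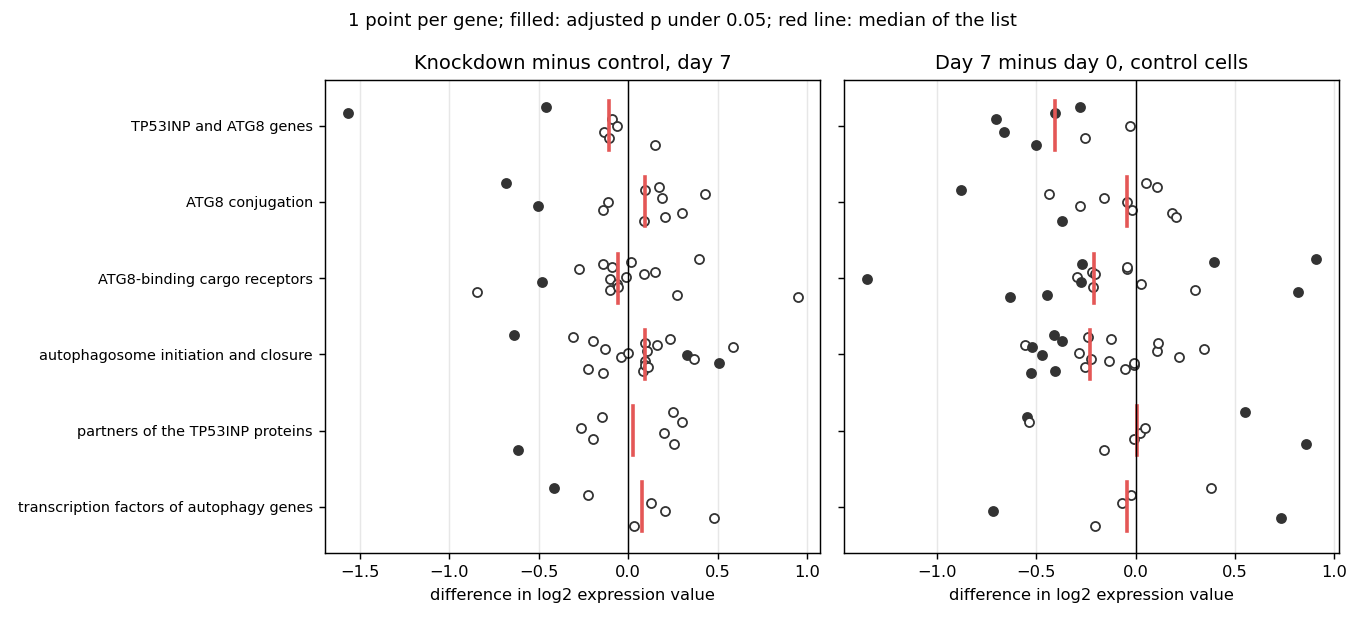
Differences in log2 expression value (horizontal axis) of each gene of the family and of the 5 pathway lists, for knockdown minus control at day 7 (left) and day 7 minus day 0 in control cells (right); filled points passed at an adjusted p under 0.05 and red lines are medians. At day 7 the medians of the lists lie between -0.06 and 0.09, and in differentiation the family's median of -0.41 lies below those of the lists.

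In differentiation the lists moved in both directions. In control cells 6 of the 59 genes rose (10.2%) and 15 fell (25.4%), beside 10.1% and 12.8% of all genes. In knockdown cells 12 rose (20.3%) and 20 fell (33.9%), beside 19% and 16.8%. The medians were -0.13 and -0.15, against -0.01 and 0.01 over all genes. Of the conjugation genes, Atg16l2 (-0.88 ± 0.24) and Atg4c (-0.37 ± 0.09) fell in control cells. In knockdown cells Atg4d, Atg5 and Atg3 rose (0.64, 0.39 and 0.29) and Atg16l2, Atg10 and Atg4c fell (-1.02, -0.84 and -0.28). The mitochondrial receptors Bnip3 and Bcl2l13 rose in control cells by 0.91 ± 0.14 and 0.82 ± 0.15, as did the ferritin receptor Ncoa4 (0.39 ± 0.13). Besides Ccpg1, Sqstm1, which encodes the receptor p62 (-0.64 ± 0.13), and the endoplasmic reticulum receptor Tex264 (-0.45 ± 0.10) fell, which made 3 higher and 5 lower of 16. In knockdown cells the count was 3 higher, led by Bcl2l13 (1.49), Ncoa4 (0.78) and Bnip3 (0.74), and 8 lower, among them Tex264 (-0.58) and Wdfy3 (-0.56).

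Of the initiation and closure genes 0 rose and 6 fell in control cells, led by Atg14 (-0.53 ± 0.13), the kinase gene Ulk2 (-0.52 ± 0.13) and Atg2b (-0.47 ± 0.15). In knockdown cells Stx17, a fusion protein of the closed autophagosome, and Atg101 rose (0.64 and 0.59), and 7 fell, led by Atg2b (-1.09), Wipi1 (-0.97) and Ulk2 (-0.77). Among the partners, the kinase gene Hipk2 and the apoptosis protease gene Casp8 rose in control cells (0.86 ± 0.12 and 0.55 ± 0.11) and in knockdown cells (0.91 and 0.84). Prkcd fell in control cells (-0.55 ± 0.17), and Thra and Vmp1 in knockdown cells (-0.36 and -0.25). Of the transcription factors Foxo1 rose and Mitf fell in both genotypes (0.73 ± 0.13 and -0.72 ± 0.17 in control cells), with Foxo1 at 1.04 in knockdown cells, and Tfeb, a master regulator of lysosomal genes, rose in knockdown cells (0.85 ± 0.30, adjusted p = 0.0413).

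The genes nearest in pattern were found by the root mean square difference between mean-centred log2 values over the 14 arrays, among 18192 other genes. Nearest to Trp53inp2 were Plod1, a collagen-modifying enzyme (0.279), Nxf3 (0.340), the RNA-binding protein gene Msi1 (0.364), Tcim (0.370) and the inflammatory caspase gene Casp1 (0.376), where the median gene was at 0.871. Plod1 averaged 11.55 and 10.20 in day 0 control and knockdown cells and 11.02 and 9.60 at day 7. Nearest to Gabarapl1, the ATG8 gene with the widest span of group means, were the cell cycle inhibitor locus Cdkn2a (0.0771), the peroxisomal enzyme gene Phyh (0.0881), the lysosomal protease gene Ctsd (0.117), Clstn1 (0.121) and the protease inhibitor gene Cst3 (0.126), where the median gene was at 0.533. Ctsd averaged 12.20 and 12.42 in day 0 control and knockdown cells and 11.46 and 11.41 at day 7. These distances describe the 14 arrays, which share a normalization.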

How the data were processed

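Total RNA of 14 3T3-L1 samples was amplified, labelled with biotin and hybridised to 1 expression array each, per the labels' protocols. The authors deposited 1 log2 expression value per probe set and array. RMA, which background-corrects, normalizes and summarises the probes, and the affy package are named in the submitters' processing notes, without versions. The log base was read from the range of the values (1.13 to 14.37). Samples were grouped by the labels' genotype, time and replicate number. The members and gene lists were chosen with earlier results of these data known. Of 45101 probe sets, 64 control probe sets were left out; 34945 named 1 gene, 932 several and 9160 are unnamed here, per the platform annotation. A gene was read from its brightest probe set by mean. Of 106 list entries, 98 were measured. Counts at an unadjusted p under 0.05 are given without the share of all genes or probe sets at that threshold.

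All arrays entered 1 model with a mean per group (limma 3.58.1, lmFit and eBayes, R 4.3.3; 5 contrasts; errors are standard errors). The threshold was 0.05 for the p adjusted by Benjamini and Hochberg's method over 18193 genes, or for other probe sets over 45037; the code was tested on simulated data. Named were all members, list genes called in a knockdown contrast or its difference, the 3 list genes that changed most each way in differentiation, and the 5 genes nearest in pattern. Same-numbered arrays deviated together within days (correlations 0.225 to 0.321 at day 0, 0.253 to 0.736 at day 7) but less across days (-0.00969 to 0.218), so the number was taken to pair arrays within a day. At day 7 this is not clear-cut: differently numbered pairs reached 0.611, and control 1 with knockdown 2 and control 2 with knockdown 1 exceeded both same-numbered pairs 1 and 4. Alternatives changed the block, the averaging of replicates 1 and 2, the scaling, the filter, the probe set rule, the features tested, the arrays in the fit and the beta-actin covariate, or left out 1 array. RMA compresses changes of dim genes, the files hold no detection calls, and precision is limited by 3 or 4 arrays a group.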

Additional observations from a re-analysis of the deposited data

How the results depend on the processing

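Across 35 differences of single members and 630 alternatives, 560 kept their direction and their side of the threshold, 27 kept the direction and lost the call, 3 gained one and 40 changed sign; none of the differences that changed sign had passed. The cause of these changes was not tested. With replicates 1 and 2 averaged, the members called were 0 at day 0, 1 at day 7 (in place of 1 and 2) and 0 with differentiation in control cells (in place of 5), and Trp53inp2 stood at -1.06 at day 0. With the mean over probe sets they were 0 at day 0 and 1 at day 7, with Trp53inp2 at -0.48 at day 0, and with only the compared groups in the fit 1 at day 7. Leaving out 1 array at a time gave 1 to 2 members at day 7 and 3 to 5 with differentiation in control cells.

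Of the 40 sign changes, 18 came with 1 array left out, 13 with another rule for the probe set and 9 with other settings. Under the probe set of largest interquartile range, knockdown differences at day 0 were 1.01 for Trp53inp1, 0.22 for Map1lc3a and -0.0738 for Gabarapl2. Those at day 7 were 0.20, 0.21 and -0.19 for the same 3 members. Trp53inp1 stood at 0.36 with differentiation in control cells. The list gene Wipi2 is not among the 40. Its day 0 difference, which had passed, also changed sign under this rule (-0.15). Under the mean over probe sets the values were 0.48 for Trp53inp1 and 0.11 for Map1lc3a at day 0, 0.0675, 0.0502 and -0.0207 for Trp53inp1, Map1lc3a and Gabarapl2 at day 7, and 0.0507 for Trp53inp1 with differentiation in control cells. Averaging replicates 1 and 2 gave 0.0154 for Map1lc3a at day 0, 0.0983 for Trp53inp1 in the difference between days and 0.00976 for Gabarapl2 with differentiation in control cells. Shifting all arrays to 1 median gave -0.0120 for Gabarap at day 0, and 0.0309 for Trp53inp1 and 0.00955 for Gabarapl2 between days; the beta-actin covariate gave -0.0841, 0.0515 and 0.0369. With 1 array left out, Trp53inp1 ran from -0.12 to 0.0736 at day 0, from -0.18 to 0.0388 at day 7 and from -0.14 to 0.0886 between days, Map1lc3a from -0.0914 to 0.11 at day 0, Gabarapl1 from -0.19 to 0.000456 at day 7, and Gabarapl2 from -0.15 to 0.0518 between days and from -0.12 to 0.0850 with differentiation in control cells.

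With the replicate number as a block over all arrays, Trp53inp2 stood at -1.17 (adjusted p = 0.00692) and -1.57 (adjusted p = 0.000719) and 160 genes were higher and 412 lower at day 0, 936 and 914 at day 7. The block within each day, chosen after seeing the data, left the member counts at 1, 2 and 0 and gave 225 and 619 genes at day 0 and 1371 and 1309 at day 7. Averaging replicates 1 and 2 left 5 and 19 genes at day 0 and 25 and 39 at day 7. Besides the list counts given above, 1 cargo receptor passed in the difference between days with the block within each day, and Trp53inp1 passed with differentiation in knockdown cells with the block over all arrays (-0.37, adjusted p = 0.0381). With 3 or 4 arrays a group, 95% confidence intervals of the members' knockdown differences reached 0.17 to 0.41 to either side of the estimate, and smaller differences could be missed. The other probe set of Trp53inp2 (mean 4.69) and the dimmest of Map1lc3b (mean 3.89) were dim, which can limit what they show. That of Trp53inp2 still passed with differentiation in control cells (-1.01). The Map1lc3b probe set 1415930_a_at was bright (mean 11.955), with a day 7 knockdown difference of -0.10. The part of dimness in the knockdown differences of these probe sets was not tested.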
